A study of Mus musculus with 2 samples.

Results

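The genes described are 10 marker genes of mast cells, basophils and eosinophils, measured in common myeloid progenitors of the mouse: Cpa3, Ms4a2, Fcer1a, Mcpt8, Prss34, Hdc, Prg2, Epx, Cma1 and Tpsb2. They were chosen by symbol and matched by Ensembl gene ID, and 10 of 10 were among the 43346 Ensembl genes of each gene table. Common myeloid progenitors are marrow cells upstream of the granulocyte, monocyte, megakaryocyte and red cell lineages. The samples were primary cells of male adult C57BL/6J mice, 5 to 6 weeks old, and their total RNA, 100 ng per library with ribosomal RNA removed, was sequenced in 2 libraries, replicates 1 and 2 of a single group. The labels name 1 donor for both and do not say whether separate animals or pools were used, so differences between the libraries may be technical in part. Gene positions are those of GENCODE M21 on GRCm38.

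Mast cells, basophils and eosinophils are granule-filled cells of allergic and antiparasitic responses. Mast cells and basophils bind immunoglobulin E through the high-affinity receptor FceRI and release histamine and proteases from their granules. Eosinophils store toxic cationic proteins and a peroxidase. All 3 arise from myeloid progenitors in the marrow, and some of their granule genes, such as Cpa3, are known to be transcribed before the cells take their mature form.

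Expected counts totalled 28158803 in replicate 1 and 84041054 in replicate 2, a ratio of 2.98 in favour of replicate 2. Of 7 genes used to check the label, Cd34, Kit, Flt3, Myb and Mpo were at 1 TPM or more in both libraries. Ly6a and Il7r, low in such cells, were below 1 TPM in both. Ly6a stood at 0.69 and 0.73 TPM. Il7r was only just below 1 TPM in replicate 1, at 0.96 TPM from 218 counts. In replicate 2 it had 0.13 TPM from 76 counts. Most markers of other mature cells were below 1 TPM in both libraries. The 5 B cell markers summed to 0 and 0.07 TPM in replicates 1 and 2, the 5 T and NK cell markers to 0.26 and 0.45 TPM and the 5 macrophage markers to 0.94 and 1.35 TPM. The 5 mature neutrophil markers summed to 4.41 and 4.89 TPM. Of these, Cxcr2, at 1.96 and 2.14 TPM, and Retnlg, at 1 and 1.74 TPM, reached 1 TPM in both libraries. The 5 markers of stroma and endothelium summed to 8.94 and 13.25 TPM. Nearly all of this came from Pecam1 at 8.76 and 12.62 TPM, which blood progenitors also express. The part of any such cells in the levels below was not tested. Since RNA of many cells was pooled, fewer cells of a type and less RNA per cell cannot be told apart in any level below.

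Of the 10 genes, 5 reached 1 TPM (a share of all transcripts, corrected for length) in both libraries, against 42.5% of 21461 nuclear protein-coding genes. These were Cpa3, Ms4a2, Prg2, Mcpt8 and Hdc. Fcer1a, Prss34 and Epx had counts in both libraries at lower levels, and Cma1 and Tpsb2 had 0 counts in both. Among all nuclear protein-coding genes, 38.3% had 0 counts in both libraries. The 10 genes had a median of 2.18 TPM in replicate 1 and 2.4 TPM in replicate 2, against 0.29 and 0.35 TPM for all nuclear protein-coding genes. Together they held 59.4 TPM in replicate 1 and 60.2 TPM in replicate 2, of which Cpa3 alone made up 51.7% and 52.9%.

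**Figure D1:**
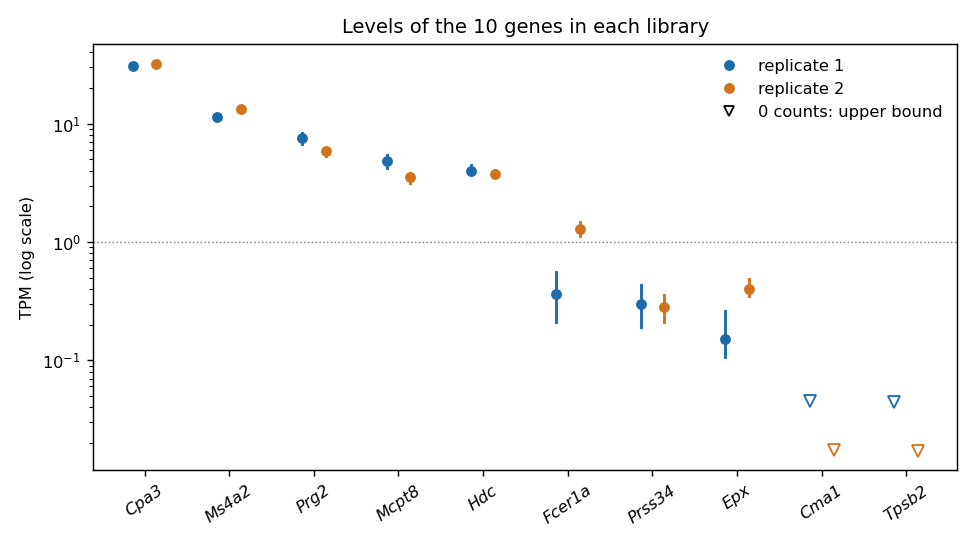
Level of each gene in TPM on a log axis, as points for replicate 1 (left, blue) and replicate 2 (right, orange), with the deposited bounds as bars. Open triangles mark the upper bound where the count was 0, and the dotted line marks 1 TPM. Cpa3 stood highest at 30.7 and 31.9 TPM, and Cma1 and Tpsb2 had 0 counts.

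Among the mast cell proteases, Cpa3 was the highest of all 10 genes and the chymase and tryptase genes had 0 counts. Cpa3 (ENSMUSG00000001865.2, chromosome 3 from 20215620 to 20242181, minus strand) encodes carboxypeptidase A3, a metalloprotease of mast cell granules. It had 2887 counts and 30.68 TPM in replicate 1, and 7738 counts and 31.86 TPM in replicate 2, a mean of 31.3 ± 0.834 TPM (SD, n = 2). Both libraries placed it near the top of the 21461 nuclear protein-coding genes, at rank 1008 in replicate 1 and rank 1080 in replicate 2. TPM here is a share of all entries of the table, of which nuclear protein-coding genes made up 20.1% and 21.5%; rescaled to those genes alone, Cpa3 stood at 152.7 TPM in replicate 1 and 148.0 TPM in replicate 2. Its deposited level lay close to that of Kit, the stem cell factor receptor of mast cells and progenitors, at 33.45 and 39.77 TPM.

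Cma1 (ENSMUSG00000022225.6, chromosome 14 from 55941451 to 55944675, minus strand) encodes a chymase, and Tpsb2 (ENSMUSG00000033825.9, chromosome 17 from 25366305 to 25369098, plus strand) a tryptase, both stored by mature mast cells of connective tissue. Each had 0 counts in both libraries. The limit that such a 0 sets, taken as 3 counts of the library total, was 0.107 CPM (the count scaled to library size) in replicate 1 and 0.0357 CPM in replicate 2, for counting error only. On the TPM scale, the deposited upper bound for Cma1 was 0.0452 in replicate 1 and 0.0175 in replicate 2. The other mature mast cell markers, Mcpt4, Tpsab1 and Mrgprb2, also had 0 counts in both libraries, so that 5 of 5 were at 0. Of the 8 other genes in the mast cell protease list, 6 had 0 counts in both libraries, against 38.3% of all nuclear protein-coding genes. Ctsg, cathepsin G, which neutrophil precursors also make, stood at 93.37 and 115.87 TPM, and Gzmb, granzyme B, at 0.45 and 0.21 TPM.

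Basophil protease genes were transcribed at lower levels. Mcpt8 (ENSMUSG00000022157.7, chromosome 14 from 56082166 to 56085273, minus strand) encodes a granule serine protease that in mice marks basophils. It had 237 counts and 4.86 TPM in replicate 1 and 447 counts and 3.51 TPM in replicate 2, a mean of 4.19 ± 0.955 TPM (SD, n = 2). Prss34 (ENSMUSG00000056399.1, chromosome 17 from 25298394 to 25300165, plus strand) encodes another serine protease of mouse basophils. It had 23 counts and 0.3 TPM in replicate 1 and 55 counts and 0.28 TPM in replicate 2. The Mcpt8 level was 16.2 times that of Prss34 in replicate 1 and 12.5 times in replicate 2, per length. The few Prss34 counts leave the size of both ratios uncertain.

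Mcpt8 and Cma1 lie in 1 cluster of protease genes on chromosome 14, and Prss34 and Tpsb2 in another on chromosome 17, so neighbouring genes could be set side by side. Around Mcpt8, 14 granzyme, mast cell protease and cathepsin G genes start within a stretch of 317.6 kb that holds Mcpt8, and 12 of the 14 had 0 counts in both libraries, 6 of these being granzyme genes and 6 mast cell chymase-like genes. The exceptions were Ctsg and Gzmb, which start at -17.3 and -177.0 kb from the start of Mcpt8, on its upstream side. Ctsg stood 19.2 times as high as Mcpt8 in replicate 1 and 33 times as high in replicate 2. Mcpt4, whose start lies 23 kb downstream of that of Mcpt8, had 0 counts. Around Prss34, the 5 related genes Prss28, Prss29, Tpsab1, Tpsb2 and Tpsg1 start within a stretch of 70.9 kb that holds Prss34, and 5 of 5 had 0 counts in both libraries, leaving Prss34 as the one gene of that group with counts. Over all nuclear protein-coding genes, 38.3% had 0 counts in both libraries. The families counted here were delimited by symbol after their values were seen.

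**Figure D2:**
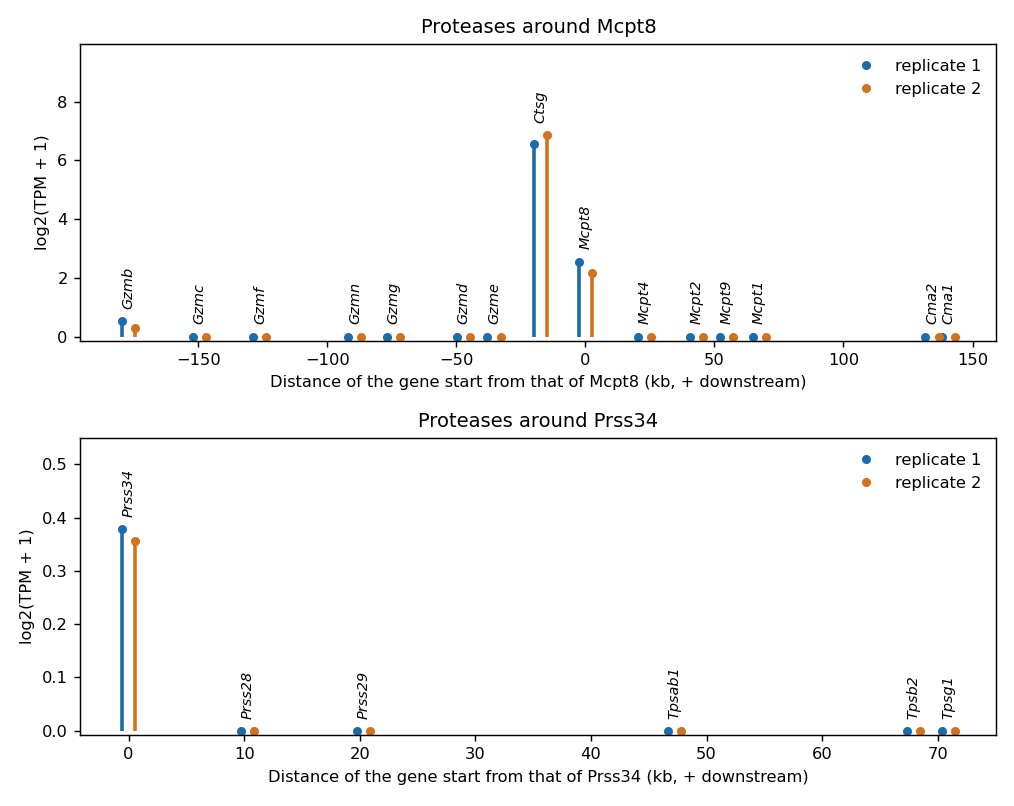
Levels as log2(TPM + 1) of protease genes around Mcpt8 (top) and Prss34 (bottom), placed by the distance of their starts from that of the named gene in kb, with replicate 1 in blue to the left and replicate 2 in orange to the right. In the upper panel counts fell on Ctsg, Mcpt8 and Gzmb, and in the lower panel on Prss34; all other genes drawn had 0 counts.

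The receptor for immunoglobulin E is built of an alpha chain that binds the antibody (Fcer1a), a beta chain that amplifies the signal (Ms4a2) and a gamma chain shared with other Fc receptors (Fcer1g). Its 3 genes stood at unequal levels. Ms4a2 (ENSMUSG00000024680.8, chromosome 19 from 11615523 to 11623719, minus strand) had 1611 counts and 11.38 TPM in replicate 1 and 4176 counts and 13.26 TPM in replicate 2, a mean of 12.3 ± 1.33 TPM (SD, n = 2). Fcer1a (ENSMUSG00000005339.6, chromosome 1 from 173221284 to 173227214, minus strand) had 17 counts and 0.36 TPM in replicate 1 and 200 counts and 1.29 TPM in replicate 2. Per length, Ms4a2 was 31.6 times as high as Fcer1a in replicate 1 and 10.3 times in replicate 2. The first ratio rests on 17 Fcer1a counts, with deposited bounds of 0.209 to 0.554 TPM, so its size is uncertain. These are values of whole genes, and most Ms4a2 counts were assigned to a single transcript model, Ms4a2-204, described below. Fcer1g stood at 19.76 and 12.97 TPM, in the range of Ms4a2. Around Ms4a2 lie 8 related Ms4a genes. Of these, 2 had 0 counts and 4 reached 1 TPM in both libraries, against 38.3% and 42.5% of all nuclear protein-coding genes. Ms4a6c was the highest of the 8 at 23.5 and 23.95 TPM. Ms4a3, which starts at -17.1 kb from Ms4a2, stood at 6.49 and 9.28 TPM.

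Genes that act below the receptor, most of which also serve other blood cells, stood at higher levels than Fcer1a. Of the 14 other genes of the immunoglobulin E receptor list, 14 reached 1 TPM in both libraries, against 42.5% of all nuclear protein-coding genes. Fcer1g, a chain of the receptor itself, is among the 14. The kinase genes Lyn, Syk and Btk stood at 16.17 and 18.07, 16.54 and 18.44, and 17.6 and 24.63 TPM in replicates 1 and 2. Lat2, an adaptor of mast cells and B cells, stood at 10.76 and 10.61 TPM. Gab2, an adaptor of this pathway in mast cells, stood at 2.53 and 3.62 TPM, and Lat, another adaptor, at 4.57 and 3.51 TPM.

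Hdc (ENSMUSG00000027360.5, chromosome 2 from 126593667 to 126619299, minus strand) encodes histidine decarboxylase, the enzyme that makes histamine. It had 729 counts and 3.99 TPM in replicate 1 and 1685 counts and 3.77 TPM in replicate 2, a mean of 3.88 ± 0.156 TPM (SD, n = 2). Genes that store or inactivate histamine were transcribed beside it. Slc18a2, the vesicular transporter that loads amines into granules, stood at 4.34 and 6.13 TPM, and Hnmt, an enzyme that inactivates histamine, at 7.29 and 2.88 TPM. Srgn, the core of the granule proteoglycan serglycin, was the highest of this list at 311.13 and 237.99 TPM. Of the 11 other genes of granule storage and amine handling, 10 reached 1 TPM in both libraries, against 42.5% of all nuclear protein-coding genes. Ddc, the related decarboxylase of dopamine and serotonin synthesis, had 0 counts in both libraries.

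Of the eosinophil granule genes, that of major basic protein stood far above that of eosinophil peroxidase. Prg2 (ENSMUSG00000027073.5, chromosome 2 from 84980461 to 84983632, plus strand), which encodes major basic protein, had 363 counts and 7.64 TPM in replicate 1 and 721 counts and 5.82 TPM in replicate 2, a mean of 6.73 ± 1.29 TPM (SD, n = 2). Epx (ENSMUSG00000052234.2, chromosome 11 from 87864000 to 87875536, minus strand), the peroxidase gene, had 28 counts and 0.15 TPM in replicate 1 and 193 counts and 0.4 TPM in replicate 2. Prg2 was 50.9 times as high as Epx in replicate 1 and 14.6 times in replicate 2, per length. The first ratio rests on 28 Epx counts, with deposited bounds of 0.107 to 0.26 TPM, so its size is uncertain.

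Close relatives of both genes lie beside them. Prg3, a second major basic protein gene, lies 7.8 kb from Prg2. It had 33 counts and 0.59 TPM in replicate 1 and 86 counts and 1.58 TPM in replicate 2, below Prg2 in both. Its CPM, which does not use length, was 1.17 in replicate 1 and 1.02 in replicate 2. Mpo, the myeloperoxidase gene of neutrophil and monocyte precursors, starts 82 kb from Epx and stood at 314.33 and 399.28 TPM, and Lpo, between them, had 0 counts in both libraries. Of the 11 other genes of the eosinophil list, 2 reached 1 TPM in both libraries, against 42.5% of all nuclear protein-coding genes. They were Siglecf at 4.71 and 4.22 TPM and the ribonuclease gene Ear2 at 1.33 and 1.59 TPM. Ccr3, the eotaxin receptor gene, had 0 counts in both libraries. Il5ra, the interleukin-5 receptor chain of eosinophil precursors, had 0 counts in replicate 1 and 87 in replicate 2.

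Other basophil, receptor and lipid mediator genes ranged widely. Of the 11 other genes of the basophil list, 5 reached 1 TPM in both libraries, against 42.5% of all nuclear protein-coding genes. They were led by the chemokine gene Ccl3 at 38.23 and 47.17 TPM and by Cd69 at 37.3 and 43.44 TPM. Many other blood cells also make both. Il1rl1, the interleukin-33 receptor on mast cells and basophils, stood at 9.31 and 9 TPM and Il3ra at 2.59 and 2.44 TPM. Low counts were found for the basophil receptor gene Cd200r3, with 0 and 22, and for the cytokine genes Il4, with 1 and 13, and Il13, with 33 and 0. The 5 mature basophil markers, Mcpt8, Prss34 and Fcer1a included, summed to 5.55 and 5.28 TPM, and the 5 mature eosinophil markers, Prg2 and Epx included, to 13.18 and 10.56 TPM with Ccr3 at 0. Of 16 surface and cytokine receptor genes, 9 reached 1 TPM in both libraries, against the same 42.5%. Among the 16, Il9r, Mrgprb2 and Ccr3 had 0 counts in both, against 38.3% of all nuclear protein-coding genes. Of 10 lipid mediator genes, 7 reached 1 TPM in both libraries, again against 42.5%. Alox5ap, the 5-lipoxygenase activator, stood at 63.94 and 28.37 TPM and Lta4h, the leukotriene A4 hydrolase gene, at 23.04 and 33.02 TPM. The highest gene of this list by TPM thus differed between the libraries. By CPM, which does not use length, Lta4h was highest in both, at 115.5 and 142.6, with Alox5ap at 54.3 and 42.7. Hpgds, the prostaglandin D2 synthase of mast cells, stood at 0.21 and 0.57 TPM and Alox15 had 0 counts in both libraries.

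Transcription factors known to act in these lineages were present in both libraries. Of 20 such genes, 13 reached 1 TPM in both, against 42.5% of all nuclear protein-coding genes. Gata2, needed for mast cells and basophils, stood at 8.93 and 13.73 TPM and Gata1, needed for eosinophils, at 9.73 and 11.41 TPM. Stat5a and Stat5b, which act below Kit and the interleukin-3 receptor, stood at 9.27 and 11.7 and at 10.32 and 14.29 TPM. Mitf, the factor of mast cell maturation, was low at 1.19 and 0.95 TPM, Cebpa, which is kept in basophils, stood at 2.6 and 4.12 TPM and Cebpe, a factor of maturing eosinophils and neutrophils, had 0.24 and 1.1 TPM.

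**Figure D3:**
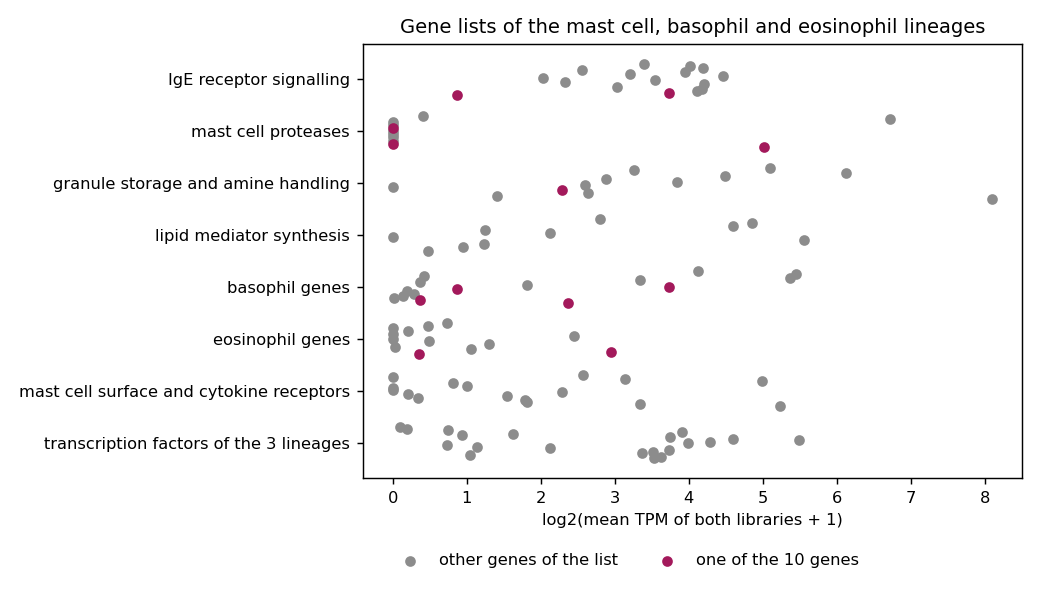
Each point is 1 gene, placed by log2 of the mean TPM of both libraries plus 1, in 8 lists; points are spread vertically so that they can be told apart, magenta for the 10 genes and grey for the others. The immunoglobulin E receptor list lies well above 0 apart from Fcer1a, while 8 of 11 mast cell protease genes lie at 0.

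Since GATA factors are known regulators of mast cell genes such as Ms4a2, the bases before gene starts were searched for their letters. The 250 bases before the RefSeq start (GRCm38.p6) were read for the 8 of 10 genes that had an entry. For Hdc, Mcpt8 and Fcer1a that start differs from the GENCODE M21 position given above. The Hdc window lies within the M21 span of Hdc, and the Mcpt8 window overlaps that of Mcpt8. AGATAA and TGATAA, forms of the letters a GATA factor prefers, were searched on both strands. They share 5 letters with each other, and neighbouring matches can have only an end letter in common. They were found in 4 of 8 promoters, those of Cpa3, Ms4a2, Fcer1a and Prss34, and in 16.6% of 32851 promoter windows of the same length. The first base of the match lay 46 bases before the start of Cpa3 and 31 bases before that of Prss34. In Ms4a2 there were 3 matches, at 224, 37 and 11 bases. Neither form was found in Mcpt8, Hdc, Epx or Cma1. Forms that end in G were not searched. Of these, the Hdc window holds TGATAG, and the Cma1 window holds CTATCT, which is AGATAG on the other strand. Whether such matches bear on the levels of the genes was not tested. Shown are the promoters of the highest pair of genes, of a low one and of a gene with 0 counts; capitals mark AGATAA or, on the other strand, TTATCT. They are chr3:20242182-20242431 for Cpa3, chr19:11623720-11623969 for Ms4a2, chr17:25298144-25298393 for Prss34 and chr14:55944676-55944925 for Cma1, each written 5′ to 3′ in the direction of the gene, which is the minus strand except for Prss34.
Cpa3: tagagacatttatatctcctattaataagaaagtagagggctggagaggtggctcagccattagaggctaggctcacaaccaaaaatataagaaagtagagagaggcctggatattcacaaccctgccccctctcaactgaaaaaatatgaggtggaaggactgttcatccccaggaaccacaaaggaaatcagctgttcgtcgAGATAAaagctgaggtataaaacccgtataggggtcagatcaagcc
Ms4a2: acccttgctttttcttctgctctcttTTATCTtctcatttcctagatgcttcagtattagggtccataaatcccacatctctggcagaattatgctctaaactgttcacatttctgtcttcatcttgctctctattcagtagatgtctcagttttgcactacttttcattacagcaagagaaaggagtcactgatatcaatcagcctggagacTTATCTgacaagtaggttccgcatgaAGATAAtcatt
Prss34: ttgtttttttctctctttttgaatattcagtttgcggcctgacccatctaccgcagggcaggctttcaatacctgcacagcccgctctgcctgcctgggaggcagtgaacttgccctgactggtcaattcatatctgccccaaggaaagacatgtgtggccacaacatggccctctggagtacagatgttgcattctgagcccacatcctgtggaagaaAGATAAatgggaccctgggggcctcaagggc
Cma1: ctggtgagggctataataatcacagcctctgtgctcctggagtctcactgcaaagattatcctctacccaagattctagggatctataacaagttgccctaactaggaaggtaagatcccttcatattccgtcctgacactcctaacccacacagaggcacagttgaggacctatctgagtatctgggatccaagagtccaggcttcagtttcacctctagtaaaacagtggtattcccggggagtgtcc

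TGTGGT, the letters a RUNX factor prefers, was found in 3 of 8 promoters, those of Cpa3, Fcer1a and Mcpt8, and in 14% of all windows. GAGGAA, which holds the core that PU.1 prefers, was found in 2 of 8, those of Fcer1a and Mcpt8, and in 23.3% of all windows. Both were searched on both strands. Such matches are letters only and were not set against any measurement of binding.

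Counts were divided among several transcript models for Ms4a2, Fcer1a and Hdc. Of the Ms4a2 counts, 90.1% in replicate 1 and 81.9% in replicate 2 were assigned to the model Ms4a2-204. A longer model draws more counts. Corrected for length, the deposited share of this model was 76.84% in replicate 1 and 60.54% in replicate 2. This model has 6 exons and 375 coding bases and ends in an exon of 2049 bases, against 7 exons and last exons of 615 and 379 bases in Ms4a2-201 and Ms4a2-202. Its exon 3 has 15 bases, against 135 in both of those models. Which stretches the reads covered was not tested. Ms4a2-202 held 9.9% of counts in replicate 1 and 16.1% in replicate 2, or 23.16% and 32.19% corrected for length.

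For Fcer1a, all 17 counts of replicate 1 were assigned to Fcer1a-202 and all 200 counts of replicate 2 to Fcer1a-201. The effective lengths behind its TPM therefore differed, at 611.36 bases in replicate 1 and 796.18 bases in replicate 2, and CPM, which does not use length, gave 0.604 and 2.38. Of the Hdc counts, 81.3% in replicate 1 and 90.5% in replicate 2 fell on Hdc-201, which encodes the enzyme. Hdc-204, a longer model with a retained intron, held 18.7% and 9.5% of counts, or 10.45% and 5.06% corrected for length. Cpa3 and Epx have 2 models each, and in both libraries all their counts fell on the protein-coding model. Mcpt8, Prss34 and Prg2 have only 1 model each, so their counts could fall on no other. For 7 of 10 genes, no stretch of 50 bases was shared with a transcript of another gene, and the shares were 2.1% for Ms4a2, 5.38% for Cma1 and 0.14% for Hdc.

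**Figure D4:**
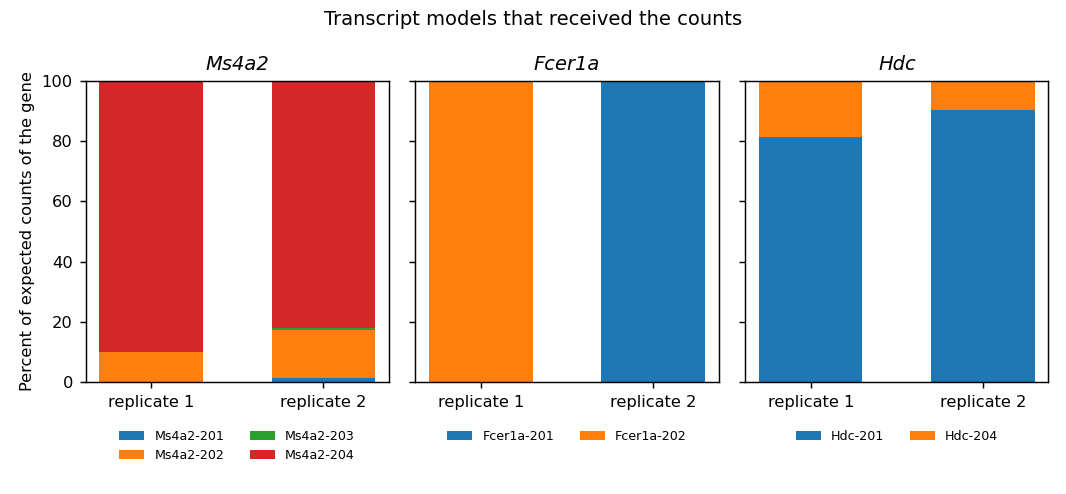
Stacked bars give the percent of expected counts of Ms4a2, Fcer1a and Hdc on each transcript model, for replicate 1 (left bar) and replicate 2 (right bar) of each panel. Ms4a2-204 took 90.1% and 81.9% of the Ms4a2 counts, and Fcer1a counts fell on a different model in each library.

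The libraries placed the highest genes in the same order and differed over the lowest. Cpa3 was highest in both, followed by Ms4a2 and then Prg2. Mcpt8 and Hdc changed places, at 4.86 and 3.99 TPM in replicate 1 and 3.51 and 3.77 TPM in replicate 2, so their order was not settled. Prss34 and Epx did so too, at 0.3 and 0.15 TPM in replicate 1 and 0.28 and 0.4 TPM in replicate 2. Fcer1a at 0.36 TPM lay within the deposited bounds of Prss34, 0.19 to 0.434 TPM, in replicate 1 and above them in replicate 2.

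Of the 8 genes with a mean of at least 10 counts, 2 differed at least 2-fold in CPM between the libraries, against 14.8% of 12443 nuclear protein-coding genes with that many counts. Both were higher in replicate 2, as were 9.51% of the 12443 genes; 0 of 8 were at least 2-fold higher in replicate 1, against 5.26% of the 12443. With 1 library on each side there is no p-value, and the comparison is of these libraries only. Fcer1a had 0.604 CPM in replicate 1 (exact Poisson 95% interval 0.352 to 0.967) and 2.38 CPM in replicate 2 (2.06 to 2.73), a log2 ratio of replicate 1 over replicate 2 of -1.97. Epx had 0.994 CPM in replicate 1 (0.661 to 1.44) and 2.3 CPM in replicate 2 (1.98 to 2.64), a log2 ratio of -1.2. These intervals do not overlap, but they cover counting error only, since PCR copies of a molecule were not told apart by identifiers. Among 2514 genes with a mean count from 10 to 200, where both genes lie, 61.5% differed at least 2-fold. The median absolute log2 ratio of those genes was 1.44, above that of Epx and below that of Fcer1a. This share falls with depth, to 6.9% for mean counts from 200 to 1500. It was not taken at the mean counts of Fcer1a and Epx alone.

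The other 6 genes had more CPM in replicate 1, with log2 ratios from 0.15 for Cpa3 to 0.66 for Mcpt8. For Cpa3 and Ms4a2 this direction turned on the TPM scale, where replicate 2 was higher, so neither can be called higher in either library. Deposited TPM bounds of the libraries did not overlap for 5 of the 8 genes, Ms4a2, Fcer1a, Mcpt8, Prg2 and Epx, against 63.7% of the same 12443 genes. For Prss34 the interval of the log2 ratio, -0.45 to 1.04, included 0.

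**Figure D5:**
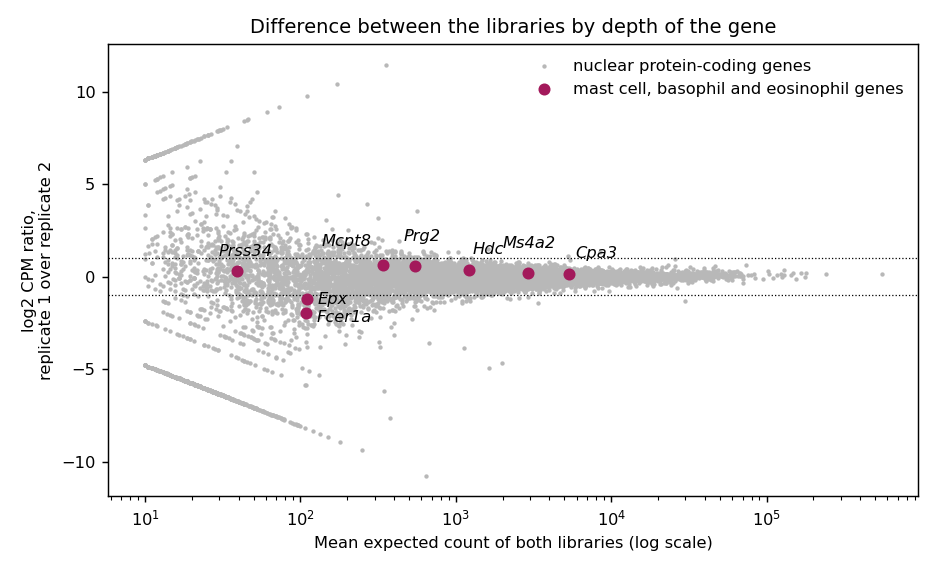
Log2 CPM ratio of replicate 1 over replicate 2 against the mean expected count of both libraries on a log axis, with nuclear protein-coding genes in grey and the 8 genes with enough counts in magenta. Dotted lines mark 2-fold. Fcer1a and Epx lie below the lower line, in the range of counts where the grey points scatter widely.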

How the data were processed

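Total RNA of common myeloid progenitors was made into libraries with a ScriptSeq kit, per the labels, whose size ranges differ between the libraries. The authors deposited gene and transcript tables for mm10 and GENCODE M4, as the readmes name them; which aligner and quantifier made them is not given in the sources used here. The deposited expected counts are estimates and need not be whole, and the deposited TPM values are relative to all entries of a table. The authors also deposited FPKM, the posterior mean of TPM and the percent of each gene per transcript, corrected for length. They deposited bounds of TPM too, treated as a score because their interval level is not stated. Ensembl IDs, without version, gave symbols and coordinates from GENCODE M21, which uses the assembly of mm10.

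The members and lists were chosen with earlier results of these data known. All 10 members are named. Any gene of the lists could be named, each list being given by its count at 1 TPM with its highest genes and those at 0 as examples, as could the 3 highest neighbours within 250 kb. Expected counts were rounded and scaled with TMM in edgeR 4.0.16, with DESeq2 1.42.0 size factors as an alternative, in R 4.3.3; log2 ratios used a prior count of 0.5, and their 95% intervals are exact binomial. The ratio step was tested on simulated data. Tables and figures were made in Python 3.11.15 (scipy 1.17.1, pandas 2.3.3, numpy 2.4.6, matplotlib 3.10.9). A single group allows no test of a condition. Alternatives were other units, thresholds, scalings and prior counts, and each library alone.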

Additional observations from a re-analysis of the deposited data

How the results depend on the processing

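With 1 group of 2 libraries, no level could be tested, and depth limits Fcer1a, Prss34 and Epx, with mean counts under 200. The count of 5 genes at 1 TPM in both libraries was the same with posterior mean TPM, FPKM, CPM and thresholds of 0.5 and 2 TPM. It was 7 once TPM was made relative to nuclear protein-coding genes alone (rescaled TPM), and 5 to 6 in single libraries. The share of all nuclear protein-coding genes, 42.5%, was taken only at 1 TPM as deposited in both libraries. Counts under the other settings therefore have no such share beside them. The median of the 10 genes, 2.29 TPM, was 5.73 with FPKM, 10.99 with the rescaled TPM and 4.03 over the genes with at least 10 counts in both libraries, and 2.18 to 2.4 TPM in single libraries. Their sum, 59.8 TPM, was 150.1 with FPKM and 287.5 with the rescaled TPM, and 59.4 to 60.2 TPM in single libraries. FPKM and the rescaled TPM are other scales, so these values do not show a change. In all, 18 values of single genes moved beyond their spread, under FPKM, rescaled TPM or, for Cma1 and Tpsb2, the posterior mean. The count of 2 genes at least 2-fold apart was the same with DESeq2 size factors, total counts, a prior count of 2 and TPM ratios. Without the filter on low counts the same 8 genes were counted, so that setting could not differ. Scaling factors were 1.0012 and 0.9988 with TMM and 1.0001 and 0.9999 with DESeq2, so the scalings could hardly change a ratio. In 24 of 24 alternatives for the log2 ratio of a single gene the value stayed within its counting interval. These alternatives shifted the ratios so little that this was nearly fixed in advance. The TPM ratio had the other sign for 2 genes, Cpa3 and Ms4a2. No paired analysis was possible because there is only 1 group.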
